A study of Mus musculus with 6 samples.

Results

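Transcripts of the insulin-like growth factor (IGF) system were examined in mouse lung cells sorted on surface Lamp1. The 9 genes are Igf1 and Igf2, which encode the ligands, Igf1r, which encodes the signalling receptor, and Igfbp2 to Igfbp7, which encode binding proteins. They were taken by gene name from the deposited table of 49315 genes, and each name matched 1 row. RNA was sequenced from lung cells of C57BL/6 mice, described as male C57BL/6J in the study's methods, after oropharyngeal instillation of Bleomycin sulfate (BLM), which injures the lung and leads to fibrosis, or of sterile saline (sham). Whole-lung cell suspensions were collected 21 days later and were sequenced unsorted, as Lamp1-depleted cells and as Lamp1-enriched cells. Lamp1 is a lysosomal membrane protein that the study examined on the cell surface as a marker of senescent cells. There were 6 libraries, 1 for each preparation of each treatment, and 2 to 3 lungs of a group were pooled per tube. The age of these mice was not given in the sources used here.

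IGF ligands bind the receptor tyrosine kinase Igf1r, which passes the signal through insulin receptor substrates to PI3K, AKT and mTOR. Secreted binding proteins hold the ligands in the extracellular space, prolong their lifetime and limit or localize receptor binding, and proteases release the ligand again. In the lung the ligands act on epithelium and mesenchyme, macrophages and mesenchymal cells are known sources of Igf1, and several binding proteins are known components of the senescence-associated secretory phenotype.

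Library totals lay between 30236120 and 52918696 counted reads. A single gene, Gm26917, took 38.4% of reads from BLM Lamp1-depleted cells, against 0.884% to 7.10% elsewhere, and the scaling factor of that library was the lowest, at 0.699. Levels are given as CPM, read counts relative to library size, after scaling by trimmed mean of M values (TMM), ratios as log2 of scaled counts, and intervals as 95% Clopper-Pearson intervals. With 1 library per condition, these intervals cover counting error only and hold nothing on differences between mice. In such bulk samples, fewer cells of a type and less RNA per cell cannot be told apart. All markers of the alveolar type 1 and type 2 epithelial lists were above 3 reads in every library, as were all 12 endothelial markers. T cell and B cell lists stood out in the depleted fractions, with summed levels of 482 and 2655 CPM in sham against 23.1 and 143 CPM in sham Lamp1-enriched cells, and of 384 and 1099 CPM against 14.6 and 55.3 CPM in BLM.

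The 9 genes split after BLM rather than moving together, whereas all 9 had higher levels in Lamp1-enriched than in Lamp1-depleted cells. A gene was counted as different at a log2 ratio of at least 1 in size and at least 10 reads in the higher library. In unsorted cells, Igf1 was the 1 of 9 genes counted as higher in BLM, against 13.9% of the 22772 genes tested, and Igf2, Igfbp3 and Igfbp6 were the 3 counted as lower, against 16.0%. In Lamp1-enriched cells, Igf1 and Igfbp5 were higher, against 10.2% of 21671 genes, and Igfbp3 was lower, against 7.81%. In Lamp1-depleted cells, Igf1 and Igfbp2 were higher, against 13.7% of 20852 genes, and Igf2 and Igfbp3 were lower, against 22.3%. Counts this small in 9 genes lie near these background shares and are given as a description. The median log2 ratio of the 9 genes was -0.74 in unsorted, -0.55 in Lamp1-enriched and 0.15 in Lamp1-depleted cells, against -0.07, 0.00 and -0.21 over all genes tested.

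The effect of BLM was also tested over the 3 preparations together, by edgeR's quasi-likelihood test with preparation as a block (6 libraries, 2 residual degrees of freedom, Benjamini-Hochberg adjustment). This test was chosen after seeing the data, and whether the preparations of a treatment came from separate mice is not given in the sources used here. The residual degrees of freedom come from how the BLM over sham ratio differed between preparations. The p-values thus do not measure the spread between mice treated alike. Igf1 was the 1 of 9 genes higher in BLM at an adjusted p under 0.05, against 2.85% of 21906 genes, and Igfbp3 the 1 lower, against 1.73%. The log2 fold change was 3.06 for Igf1 (adjusted p = 0.00120) and -2.03 for Igfbp3 (adjusted p = 0.00256), and over the alternatives the adjusted p ranged from 5.13e-19 to 0.00120 for Igf1 and from 4.38e-09 to 0.00256 for Igfbp3. The smallest values came with all genes that had at least 1 read, where the fit took its spread wholly from values shared across genes. They are therefore no stronger evidence on mice. Igf2, at -1.05, did not pass (adjusted p = 0.0692) but did with total counts only, at 0.0217, with all genes that had at least 1 read, at 0.0106, and by the DESeq2 Wald test, at 0.0212. The other 6 genes passed under none of the settings tried.

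**Figure D1:**
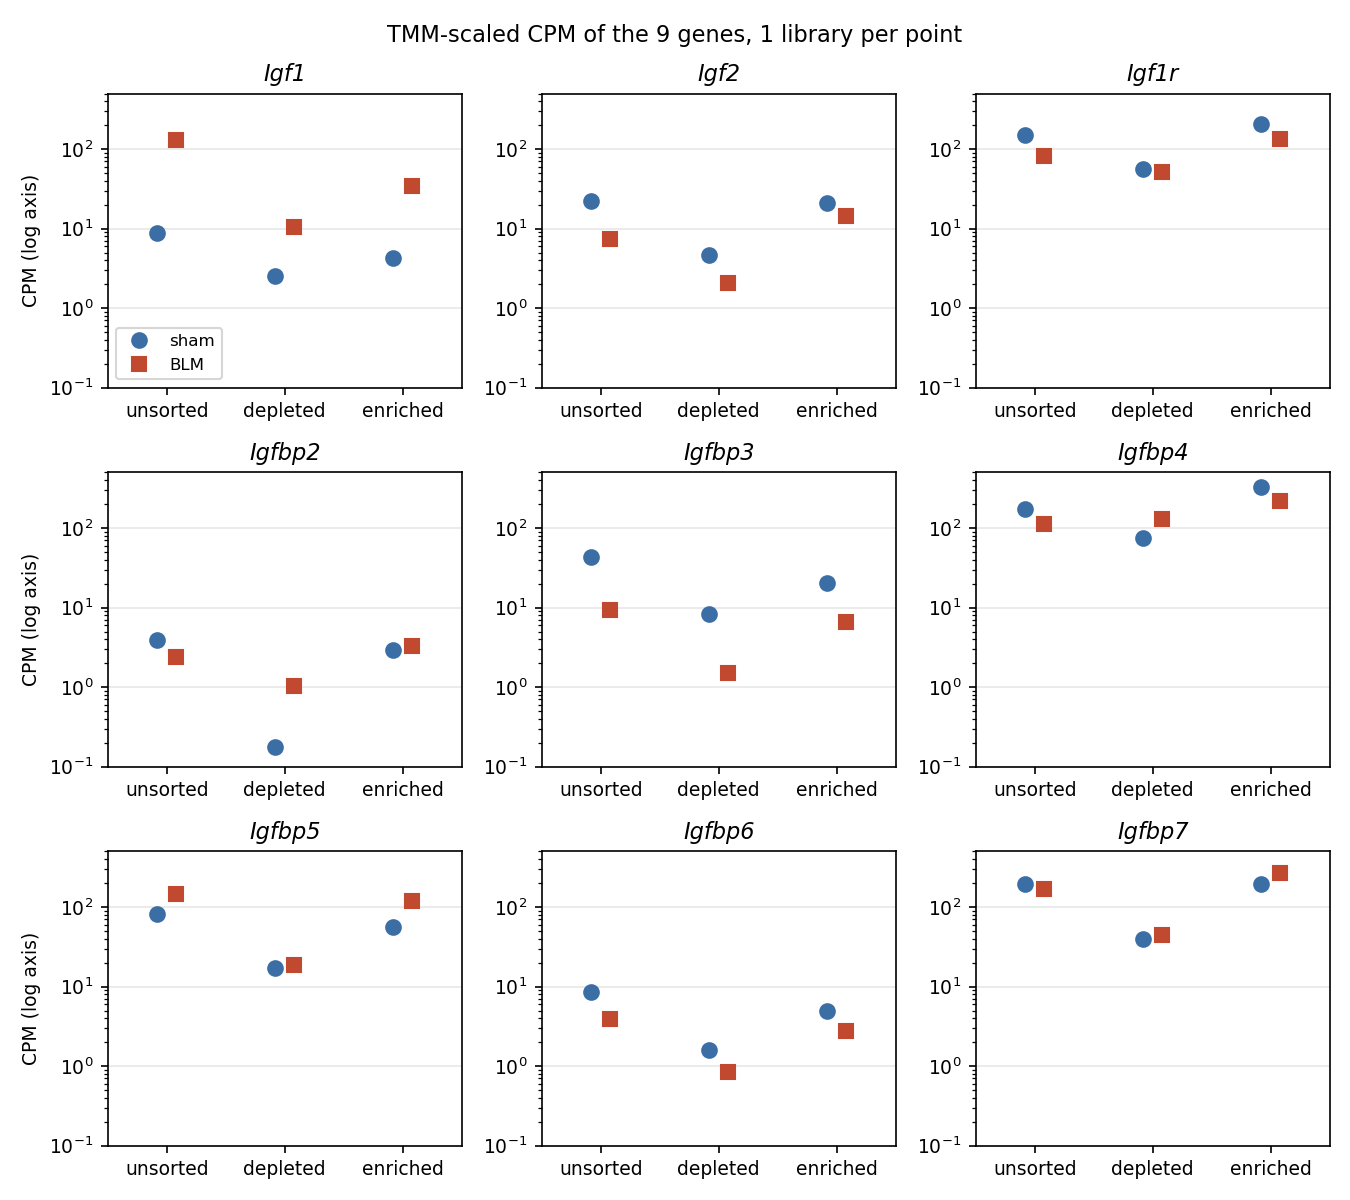
TMM-scaled CPM (log axis) of each of the 9 genes in unsorted, Lamp1-depleted and Lamp1-enriched cells of sham (circles) and BLM (squares) mice, with 1 library per point and no error bars. Igf1 lay higher in BLM in every preparation, from 8.88 to 130 CPM in unsorted cells, Igfbp3 lay lower, and each gene was lower in depleted than in enriched cells of the same treatment.

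Igf1 encodes the ligand that growth hormone induces in liver and that many tissues also make locally. Its gene lies on chromosome 10 at positions 87858265 to 87937042 of GRCm38, on the plus strand. In sham cells its level was 8.88 CPM unsorted, 2.52 CPM Lamp1-depleted and 4.28 CPM Lamp1-enriched. In BLM cells it was 130 CPM unsorted, 10.6 CPM depleted and 34.6 CPM enriched. BLM lay above sham in each preparation, most of all in unsorted cells. BLM unsorted cells were 14.7-fold above sham unsorted cells, on 5147 against 431 reads, with a log2 ratio of 3.88 (3.74 to 4.02). The ratio was smaller in sorted cells, at 3.01 (2.80 to 3.23) in Lamp1-enriched and 2.06 (1.73 to 2.40) in Lamp1-depleted cells. Igf1 stood at the 99.3rd, 98.7th and 94.9th percentile of all genes tested in these comparisons.

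The level of Igf1 in unsorted cells was also above that in both sorted fractions of the same treatment. The log2 ratio of unsorted cells over the higher fraction was 1.05 in sham and 1.92 in BLM, although a mixture of the fractions alone would lie between them. Igf1 and Igfbp3 were the 2 of 9 genes at least 2-fold above both fractions in sham, against 7.22% of 23233 genes, and Igf1 was the 1 such gene in BLM, against 8.41% of 22801.

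The scar-associated macrophage list (Spp1, Gpnmb, Trem2, Fabp5, Mmp12, Arg1 and Cd63) was above sham for 7 of 7 genes in all 3 preparations. Its summed level was 117 CPM unsorted, 23.6 CPM depleted and 89.8 CPM enriched in sham, and 4851, 380 and 669 CPM in BLM. The monocyte and interstitial macrophage list was higher for 9 of 10 genes in BLM unsorted cells, at 1034 against 162 CPM, and for 8 of 10 in enriched cells, at 194 against 96.3 CPM. In depleted cells it was higher for 6 of 10 genes with a lower sum, at 343 against 421 CPM. The alveolar macrophage list, of which 7 of 8 genes were found, was higher for 5 of 7 genes in BLM unsorted cells, at 2636 against 445 CPM, for 5 of the 6 tested in enriched cells, at 301 against 115 CPM, and for 4 of 7 in depleted cells, at 217 against 134 CPM. Fabp1, in that list, had 0 reads in both sorted BLM libraries, and no gene of the other macrophage lists was at 0 in any library. Each of these lists, like Igf1, was highest in BLM unsorted cells. Their part in the Igf1 result was not tested.

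**Figure D2:**
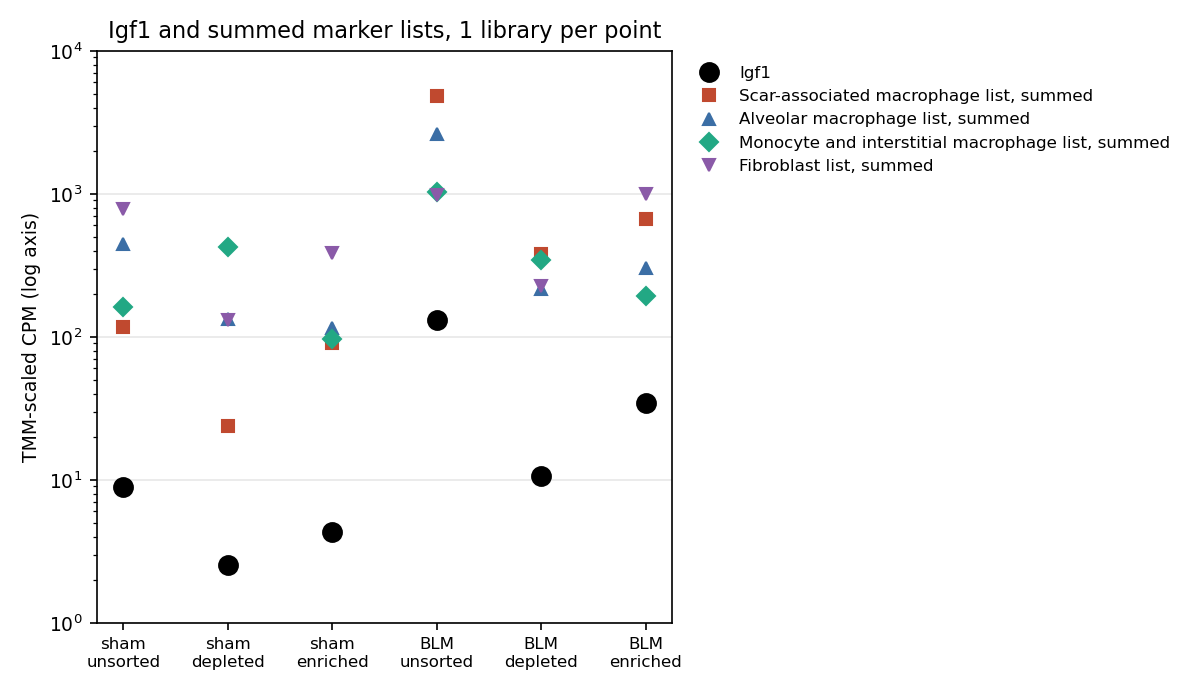
TMM-scaled CPM (log axis) of Igf1 and summed CPM of 3 macrophage lists and 1 fibroblast list in the 6 libraries, with 1 library per point. Igf1 and the 3 macrophage lists were highest in BLM unsorted cells, at 130 CPM for Igf1 and 4851 CPM for the scar-associated list. The fibroblast list summed to 1003 CPM in BLM Lamp1-enriched cells and 975 CPM in BLM unsorted cells. Sums lean on the genes with most reads, such as Spp1 (138232 reads in BLM unsorted cells) and Col1a1 (24208 in BLM Lamp1-enriched cells). Genes of the fibroblast list went both ways after BLM.

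The genes with the profile most like that of Igf1 over the 6 libraries were Fcrls, Npl and Prune2. Likeness was measured as the root mean square difference of log2 CPM profiles, each centred on its own mean, among 11894 genes with at least 200 reads in 1 library. The differences were 0.35, 0.35 and 0.37 log2 units. Among the IGF genes, Igfbp5 came closest to Igf1, at 1.26, and Igfbp3 lay farthest from it, at 2.58.

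Igf2 encodes the other ligand, an imprinted growth factor that is abundant in the fetus. Its gene lies on chromosome 7 at positions 142650766 to 142666816, on the minus strand. In sham cells the level was 22.5 CPM unsorted, 4.65 CPM depleted and 21.1 CPM enriched, and in BLM cells it was 7.40, 2.08 and 14.4 CPM. Igf2 was thus lower in BLM in each preparation and lowest in depleted cells of both treatments. The BLM over sham log2 ratio was -1.60 (-1.80 to -1.42) in unsorted, -1.15 (-1.66 to -0.68) in Lamp1-depleted and -0.55 (-0.69 to -0.41) in Lamp1-enriched cells. The ratio in enriched cells was 1.05 (0.82 to 1.28) log2 units above that in unsorted cells. The profiles closest to Igf2 were those of Gnao1, at 0.09, and of D630045J12Rik and Prss48, both at 0.13. In the annotation, 3596 of the 5723 exon bases of Igf2 are shared with an overlapping gene on the same strand, Gm49394, which has no row in the table, although genes with 0 reads in all libraries do have rows.

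The ligand that prevailed changed with treatment. Levels of different genes were compared as CPM per kilobase of exon. On that scale Igf1 was 18.6%, 23.9% and 10.5% of the summed ligand level in sham unsorted, depleted and enriched cells, and 91.1%, 74.5% and 58.1% in the BLM preparations. The log2 ratio of Igf1 over Igf2 was -2.13 (-2.30 to -1.97) in sham unsorted and 3.35 (3.18 to 3.52) in BLM unsorted cells. It was -3.09 (-3.32 to -2.87) in sham Lamp1-enriched and 0.47 (0.35 to 0.59) in BLM Lamp1-enriched cells, and -1.67 (-2.01 to -1.34) and 1.55 (1.08 to 2.05) in the depleted cells. Igf2 thus exceeded Igf1 in all 3 sham libraries and Igf1 exceeded Igf2 in all 3 BLM libraries. This order rests on counts within a library and does not depend on how libraries were scaled. It does depend on the exon length taken for Igf2. If reads on the bases shared with Gm49394 had not been counted, 2127 exon bases would remain, and the log2 ratio of Igf1 over Igf2 would be -3.56, -3.10 and -4.52 in sham unsorted, depleted and enriched cells and 1.92, 0.12 and -0.96 in BLM. Igf2 would then exceed Igf1 in BLM Lamp1-enriched cells too.

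Igf1r encodes the receptor through which both ligands signal. Its gene lies on chromosome 7 at positions 67952827 to 68233668, on the plus strand. The level was 151 CPM unsorted, 56.4 CPM depleted and 205 CPM enriched in sham, and 82.5, 51.3 and 134 CPM in BLM. The receptor was highest in enriched cells of both treatments, and its BLM levels were below sham in unsorted and enriched cells. The BLM over sham log2 ratio was -0.87 (-0.93 to -0.81) in unsorted and -0.61 (-0.66 to -0.57) in enriched cells, neither counted as different. In depleted cells it was -0.14 (-0.24 to -0.03), a direction that turned to 0.01 with DESeq2 size factors. The endothelial list was lower in BLM unsorted cells for 12 of 12 genes, with a summed level of 6569 CPM against 13526 CPM in sham. In enriched cells, where the receptor ratio was -0.61, the list was lower for 6 and higher for 6 of 12 genes (median -0.07), at 21216 against 23714 CPM, and in depleted cells it was lower for 11 of 12, at 1304 against 2670 CPM, with no marker at 0, and its part in the receptor result was not tested. The gene closest in profile to Igf1r was Epb41l2, with a difference of 0.03, followed by Cflar at 0.09 and Zfp14 at 0.10.

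Binding protein transcripts were dominated by Igfbp7 and Igfbp4. Per kilobase of exon, Igfbp7 made up 51.8% to 74.4% and Igfbp4 12.8% to 41.2% of the summed level of the 6 binding proteins over the libraries, and both ranked above all other IGF genes in each library. Igfbp5 made up 5.65% in sham unsorted and 12.3% in BLM unsorted cells, and Igfbp3 5.84% and 1.51%. In sham unsorted cells Igfbp3, at 14.0 CPM per kilobase, and Igfbp5, at 13.5, held ranks 3 and 4, and in BLM unsorted cells Igfbp5 held rank 3 at 24.6 and Igfbp3 rank 7 at 3.02. Igf1 moved from rank 9 of 9 in sham unsorted cells, at 0.896, to rank 4 in BLM unsorted cells, at 13.2. The summed binding proteins were 49.5 times the summed ligands in sham unsorted cells and 13.8 times in BLM unsorted cells, while the 4 sorted libraries lay between 49.3 and 62.7 times. These multiples, like the ranks, use the full exon length of Igf2. If reads on the bases shared with Gm49394 had not been counted, the Igf2 level would be higher. The multiples would then be smaller, most of all in sham, and sham and BLM unsorted cells would lie closer together. Without replicate libraries, the order of neighbouring ranks such as Igfbp3 and Igfbp5 in sham unsorted cells has no measured spread.

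**Figure D3:**
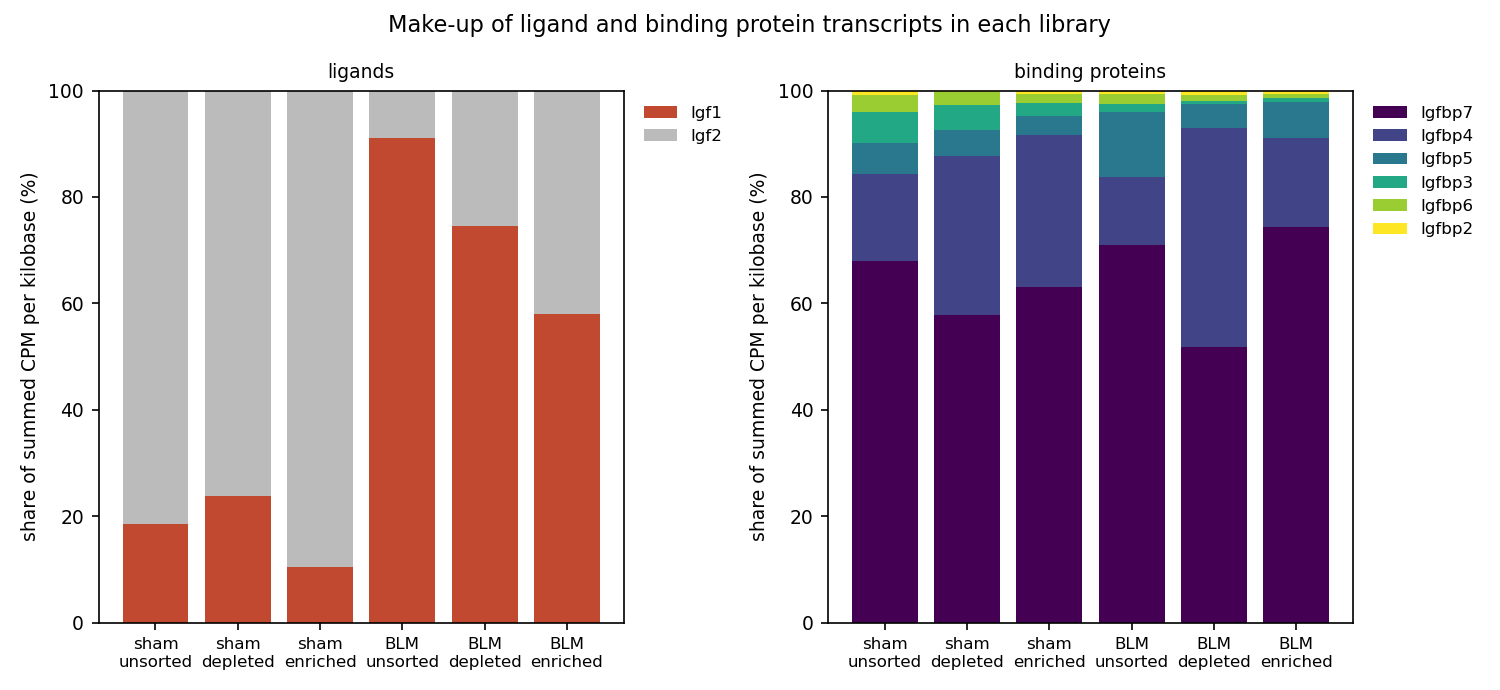
Shares (%) of the summed CPM per kilobase of exon taken by each ligand (left) and each binding protein (right) in the 6 libraries, as stacked bars without error bars. Igf1 made up 10.5% to 23.9% of the ligands in sham and 58.1% to 91.1% in BLM, and Igfbp7 was the largest part of the binding proteins in every library, at 51.8% to 74.4%. The ligand shares use all exon bases of Igf2, including those shared with Gm49394. On the other Igf2 bases alone, the log2 ratio of Igf1 over Igf2 in BLM Lamp1-enriched cells would be -0.96.

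Promoters of 3 binding proteins are shown because their BLM over sham log2 ratios in Lamp1-enriched cells lay apart, at -1.61 for Igfbp3, 1.11 for Igfbp5 and 0.44, under the fold used, for Igfbp7, which was at -0.20 in unsorted cells. The bases before the RefSeq start are given 5′ to 3′ on the strand of the gene, from GRCm38.p6, with matches to the motifs searched in capitals. Igfbp3 is read from chr11:7213924-7214173, Igfbp5 from chr1:72874885-72875115 and Igfbp7 from chr5:77408046-77408295, all on the minus strand. For Igfbp5, 19 bases that the annotation places in its exon were left out.
Igfbp3: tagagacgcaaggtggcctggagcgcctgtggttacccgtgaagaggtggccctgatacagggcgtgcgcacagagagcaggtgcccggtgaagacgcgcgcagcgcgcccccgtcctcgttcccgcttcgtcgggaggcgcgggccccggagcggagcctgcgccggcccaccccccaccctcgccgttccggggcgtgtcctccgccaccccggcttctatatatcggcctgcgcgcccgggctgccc
Igfbp5: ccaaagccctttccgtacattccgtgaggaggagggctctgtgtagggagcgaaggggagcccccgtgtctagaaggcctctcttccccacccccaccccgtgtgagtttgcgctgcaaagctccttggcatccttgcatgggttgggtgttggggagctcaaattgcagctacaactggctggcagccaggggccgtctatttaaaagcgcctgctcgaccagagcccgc
Igfbp7: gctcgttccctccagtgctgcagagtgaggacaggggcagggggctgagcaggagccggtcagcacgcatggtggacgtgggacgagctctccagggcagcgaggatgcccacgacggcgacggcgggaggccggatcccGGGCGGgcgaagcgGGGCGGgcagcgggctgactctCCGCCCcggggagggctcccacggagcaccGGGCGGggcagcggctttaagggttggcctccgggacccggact
Motifs were searched on both strands as the TATA box TATAAA, the GC box GGGCGG, the CCAAT box CCAAT, the AP-1 site TGANTCA and the E-box CACGTG, which are held by 12.4%, 32.7%, 33.8%, 6.75% and 6.02% of 32851 RefSeq promoter windows of 250 bases. No match fell in the Igfbp3 or Igfbp5 window, and the Igfbp7 window held 4 GC boxes, the nearest 44 bases before the start. GC content was 73.2% for Igfbp3, 58.8% for Igfbp5 and 74.0% for Igfbp7, against a median of 52.4% over all windows. All 9 genes had at least 1 window in RefSeq, and the 250 bases before the Igf1 start lie inside annotated exons of longer Igf1 transcripts and are not printed.

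Igfbp3 encodes the main carrier of IGFs in serum, where it forms a complex with the acid-labile subunit. Its gene lies on chromosome 11 at positions 7206086 to 7213923, on the minus strand. The level was 43.7 CPM unsorted, 8.38 CPM depleted and 20.3 CPM enriched in sham, and 9.46, 1.51 and 6.68 CPM in BLM. Igfbp3 was the only member counted as lower in BLM in all 3 preparations. The log2 ratio was -2.21 (-2.37 to -2.05) in unsorted, -2.46 (-3.04 to -1.95) in depleted and -1.61 (-1.79 to -1.43) in enriched cells, so that unsorted BLM cells held 4.61-fold less. The unsorted sham level was 1.10 log2 units above the higher sham fraction. Its closest profiles were those of Ms4a4d at 0.15, and of Slc38a5 and Itga8 at 0.25. The neighbouring binding protein gene Igfbp1, 3539 bases away on the opposite strand, had 1 read in 1 library and 0 in the others.

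Igfbp6 encodes a binding protein that prefers Igf2 over Igf1, and its gene lies on chromosome 15 at positions 102144362 to 102149511, on the plus strand. The level was 8.65 CPM unsorted, 1.58 CPM depleted and 4.87 CPM enriched in sham, and 3.95, 0.852 and 2.77 CPM in BLM. It was lower in BLM in each preparation, by a log2 ratio of -1.13 (-1.40 to -0.86) in unsorted, -0.81 (-1.12 to -0.51) in enriched and -0.88 (-1.72 to -0.13) in depleted cells, the last on 18 against 72 reads. Egfl6 was closest in profile, at 0.14, and Crispld2 and Pdgfra, a receptor used as a fibroblast marker, followed at 0.20. The genes of the fibroblast list went both ways. In BLM unsorted cells 6 of its 11 genes were below and 5 above sham (median log2 ratio -0.06), and the summed level was 975 CPM against 781 CPM in sham. In enriched cells 5 were below and 6 above (median 0.71), with sums of 1003 and 386 CPM. In depleted cells 7 were below and 4 above (median -1.09), while the sum was higher, at 225 against 132 CPM. No marker of the list was at 0 in any library. Among them, the collagen gene Col1a1 had 16387 against 4487 reads in BLM and sham unsorted cells, and Inmt 684 against 11524. The type 2 epithelial list was lower in BLM unsorted cells for 8 of 8 genes, at 373 against 1458 CPM. It was also lower for 8 of 8 in enriched cells, at 343 against 1064 CPM, and for 6 of 8 in depleted cells, at 149 against 250 CPM. The part of either list in the Igfbp3 and Igfbp6 results was not tested.

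Igfbp5 encodes a binding protein that also attaches to extracellular matrix. Its gene lies on chromosome 1 at positions 72857932 to 72874884, on the minus strand. The level was 81.1 CPM unsorted, 16.9 CPM depleted and 56.3 CPM enriched in sham, and 148, 18.8 and 121 CPM in BLM. BLM levels were above sham in unsorted and enriched cells and close to sham in depleted cells. The log2 ratio was 0.87 (0.81 to 0.93) in unsorted cells, 1.11 (1.04 to 1.17) in enriched cells, where the gene was counted as higher, and 0.16 (-0.02 to 0.34) in depleted cells, which turned to -0.56 with total counts only. In enriched cells the summed fibroblast list was also higher in BLM, through 6 of its 11 genes, and its part was not tested. The profiles closest to Igfbp5 were Cd248, which encodes a surface protein of stromal cells, at 0.14, Nptxr at 0.22 and Ltbp3 at 0.23.

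Igfbp2 lies 5457 bases from Igfbp5 on the opposite strand, at positions 72824503 to 72852474 of chromosome 1, and encodes a binding protein that can also contact integrins. It had the fewest reads of the members summed over the libraries, although Igfbp6 had fewer in both sorted BLM libraries. There were 192 reads in sham unsorted, 8 in sham depleted and 136 in sham enriched cells, and 93, 22 and 180 reads in BLM. The levels were 3.95, 0.175 and 2.96 CPM in sham and 2.36, 1.04 and 3.30 CPM in BLM. The depleted sham library was the lowest by far. The BLM over sham log2 ratio was -0.74 (-1.12 to -0.38) in unsorted cells, 0.16 (-0.17 to 0.49) in enriched cells and 2.49 (1.35 to 3.95) in depleted cells. The profiles of the neighbours Igfbp2 and Igfbp5 differed by 0.90 log2 units, more than the 0.47 between Igfbp5 and Igfbp7, which lies on another chromosome.

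Igfbp4 encodes a binding protein that restrains IGF action until the protease Pappa cleaves it, and its gene lies on chromosome 11 at positions 99041244 to 99054392, on the plus strand. The level was 174 CPM unsorted, 75.6 CPM depleted and 326 CPM enriched in sham, and 113, 129 and 218 CPM in BLM. Enriched cells were highest in both treatments, and the gap between the fractions was smaller in BLM. The BLM over sham log2 ratio was -0.63 (-0.68 to -0.58) in unsorted and -0.58 (-0.62 to -0.55) in enriched cells, but 0.77 (0.70 to 0.84) in depleted cells, which was 0.05 with total counts only. Igfbp4 was also the only member that in BLM was lower in unsorted cells than in both fractions, by 0.19 (0.12 to 0.26) relative to depleted cells, but with total counts only the depleted cells were the lower, by a log2 ratio of -0.31. Its profile was closest to P4htm at 0.16, Hid1 at 0.17 and Cbfa2t3 at 0.18, and among the IGF genes to Igf1r, at 0.35, the smallest distance between any members.

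Igfbp7 encodes a low-affinity IGF binding protein found around vessels, on chromosome 5 at positions 77349240 to 77408041, on the minus strand. The level was 196 CPM unsorted, 40.0 CPM depleted and 197 CPM enriched in sham, and 171, 44.4 and 266 CPM in BLM. Depleted cells were far below the other preparations in both treatments. The BLM over sham log2 ratio was -0.20 (-0.24 to -0.15) in unsorted and 0.44 (0.40 to 0.47) in enriched cells, and 0.15 (0.03 to 0.26) in depleted cells, which turned to -0.57 with total counts only. None of these passed the fold used. Fgfr3 and Iqsec2, both at 0.11, and Obsl1, at 0.13, had the closest profiles. Igfbp7 shares 85 of its 1209 exon bases with Polr2b on the opposite strand, and without a stated strand setting of the counting, reads there cannot be assigned.

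**Figure D4:**
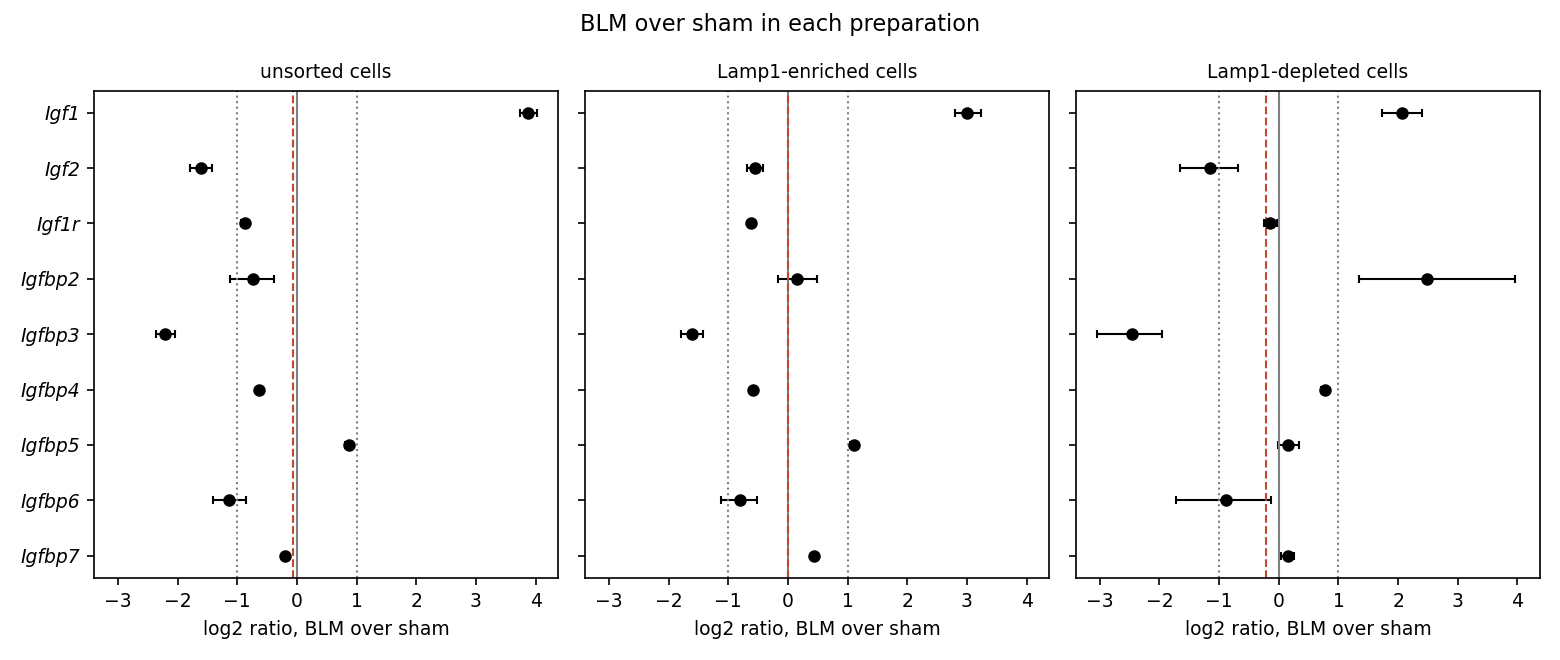
Log2 ratio of BLM over sham for the 9 genes in unsorted, Lamp1-enriched and Lamp1-depleted cells, with 95% counting intervals, dotted lines at 1 and -1, and a dashed line at the median of all genes tested. Igf1 lay above 1 (3.88, 3.01 and 2.06) and Igfbp3 below -1 (-2.21, -1.61 and -2.46) in all 3 panels. In depleted cells the signs of Igf1r, Igfbp5 and Igfbp7 turned under another scaling, to 0.01 with DESeq2 size factors and to -0.56 and -0.57 with total counts only.

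Between the 2 fractions sorted on surface Lamp1, the whole group differed in 1 direction. In sham, 8 of 9 genes were at least 2-fold higher in Lamp1-enriched than in Lamp1-depleted cells, against 27.5% of 21867 genes tested, and 0 of 9 were lower, against 25.2%. In BLM, again 8 of 9 were higher, against 34.4% of 21838 genes, and 0 of 9 lower, against 22.6%. The exceptions were Igf1 in sham, with a log2 ratio of 0.76 (0.42 to 1.11), and Igfbp4 in BLM, with 0.75 (0.69 to 0.81). All 9 ratios lay above 0 in both treatments and under every scaling tried. The median of the 9 genes was 1.86 in sham and 1.71 in BLM, against -0.01 and 0.29 over all genes. Relative to unsorted cells, the depleted fraction lay low, with medians of -2.27 in sham and -1.95 in BLM, against -0.03 and -0.34. Enriched over unsorted cells, the medians were -0.42 in sham and 0.48 in BLM, against -0.03 and 0.04. There 3 members lay above and 6 below 0 in sham, and 5 above and 4 below in BLM.

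In sham the log2 ratio was largest for Igfbp2, at 3.99 (3.05 to 5.31), on 136 against 8 reads, followed by Igfbp7 at 2.30 (2.23 to 2.37), Igf2 at 2.18 (1.97 to 2.40) and Igfbp4 at 2.11 (2.06 to 2.16). In BLM it was largest for Igf2, at 2.78 (2.35 to 3.26), Igfbp5, at 2.69 (2.54 to 2.84), and Igfbp7, at 2.59 (2.49 to 2.68). Igf2 and Igfbp7 were thus among the most separated members in both treatments. The ratio was larger in BLM than in sham by 0.95 (0.56 to 1.34) log2 units for Igf1 and by 0.95 (0.76 to 1.13) for Igfbp5, and differed by -1.36 (-1.44 to -1.28) for Igfbp4 and -2.33 (-3.54 to -1.12) for Igfbp2, by counting error alone. These differences use the same 4 libraries as the BLM over sham ratios of the sorted fractions and are not separate evidence.

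**Figure D5:**
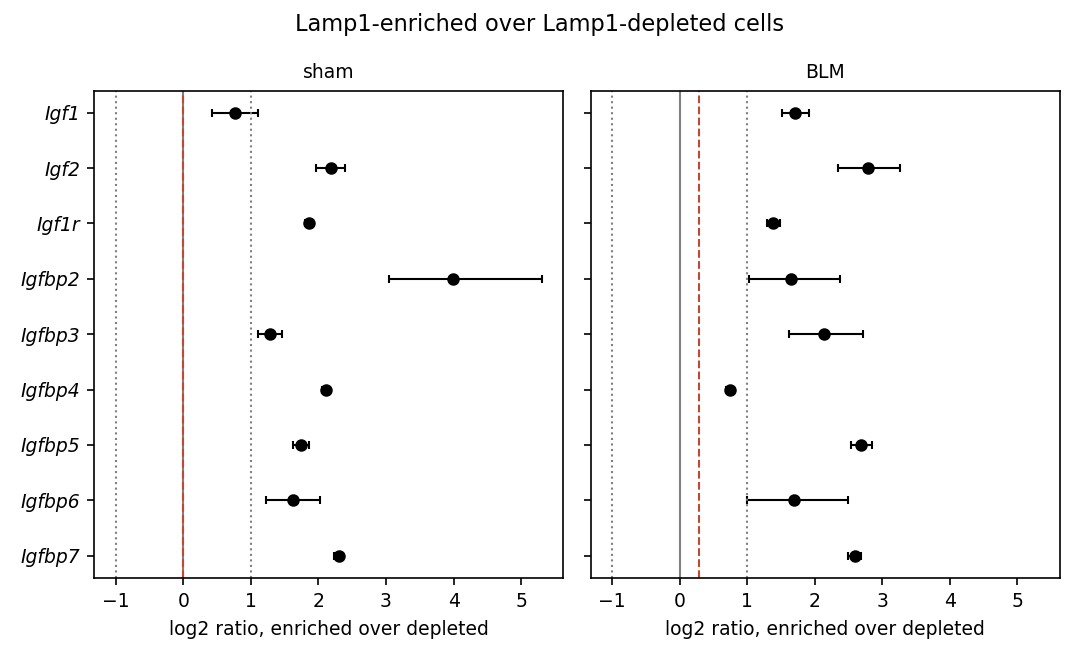
Log2 ratio of Lamp1-enriched over Lamp1-depleted cells for the 9 genes in sham and BLM, with 95% counting intervals, dotted lines at 1 and -1, and a dashed line at the median of all genes tested (-0.01 and 0.29). All points lay above 0, from 0.76 (Igf1) to 3.99 (Igfbp2) in sham and from 0.75 (Igfbp4) to 2.78 (Igf2) in BLM.

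The effect of sorting was tested over both treatments, with 1 residual degree of freedom, which comes from how that effect differed between sham and BLM. In edgeR's quasi-likelihood test of both fractions from both treatments (4 libraries, blocked by treatment, Benjamini-Hochberg adjustment), 9 of 9 genes were higher in Lamp1-enriched cells at an adjusted p under 0.05. Over all 20593 genes tested, 21.5% were higher and 19.2% lower by the same rule. The adjusted p was 2.70e-09 for Igfbp7 (log2 fold change 2.35) and 2.72e-08 for Igfbp5 (2.11), and it was largest for Igfbp6, at 0.0203 (1.57), and Igf1, at 0.0106 (1.15). Total counts without TMM left 5 of 9 genes past the threshold by the quasi-likelihood test, without Igf1, Igf1r, Igfbp4 and Igfbp6. The share of all genes past it under that scaling is not given here. The p-values rest on dispersions shared across genes, with 1 library for each treatment and fraction.

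Marker lists of most structural lung cells, and of platelets, were also higher in Lamp1-enriched cells. The endothelial list was higher in Lamp1-enriched cells for 12 of 12 genes in both treatments, with median log2 ratios of 3.21 and 3.79 and sums of 23714 against 2670 CPM in sham and 21216 against 1304 CPM in BLM. The fibroblast list was higher for 10 of 11 genes in both, with medians of 1.44 and 2.28. T cell and B cell lists were lower for 7 of 7 and 5 of 5 genes in both, with medians of -4.39 and -4.19 in sham and -4.43 and -3.62 in BLM. The part of these lists in the sorting result was not tested.

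Of 50 other genes of the pathway, listed from general knowledge by role, all were found in the table. In sham 19 of the 46 genes with enough reads were higher and 2 lower in Lamp1-enriched than in Lamp1-depleted cells, against 27.5% and 25.2% of all genes tested. In BLM 23 of 45 were higher and 3 lower, against 34.4% and 22.6%. BLM over sham, 2 of 47 were higher and 8 lower in unsorted cells, against 13.9% and 16.0%. In enriched cells 4 of 45 were higher and 3 lower, against 10.2% and 7.81%, and in depleted cells 5 of 46 were higher and 7 lower, against 13.7% and 22.3%. By edgeR's quasi-likelihood test with Benjamini-Hochberg adjustment 19 of 45 were higher and 3 lower in Lamp1-enriched cells, against 21.5% and 19.2%. The median log2 ratio of the list between fractions was 0.67 in sham and 1.07 in BLM.

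Among the receptors outside the 9 genes, Igf2r, which clears Igf2, had 3980, 3283 and 5187 reads in sham unsorted, depleted and enriched cells and 5417, 1698 and 7883 reads in BLM. Its log2 ratio between fractions was 0.65 (0.58 to 0.71) in sham and 0.85 (0.77 to 0.92) in BLM, under the fold used and below that of Igf1r.

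Of 5 genes encoding proteases of the binding proteins and their inhibitors, 4 in sham and 5 in BLM were at least 2-fold higher in enriched than in depleted cells, against 27.5% and 34.4% of all genes, and 3 of 5 passed edgeR's quasi-likelihood test with Benjamini-Hochberg adjustment, against 21.5%. Pappa (adjusted p = 0.0916) and Stc2 (adjusted p = 0.773, with a log2 ratio of -0.42 in sham) did not pass. Pappa, the protease of Igfbp4, had 28 reads in sham and 159 in BLM Lamp1-enriched cells, a log2 ratio of 2.24 (1.67 to 2.90), and 9 and 19 reads in depleted cells. In unsorted cells it had 59 reads in sham and 61 in BLM, a ratio of 0.34 (-0.19 to 0.89). Its relative Pappa2, which cleaves Igfbp5 and Igfbp3, had 23 and 178 reads in the enriched libraries, a ratio of 2.68 (2.08 to 3.40). The Pappa2 ratio was 0.89 (0.37 to 1.42) in unsorted and 0.10 (-1.79 to 1.79) in depleted cells, neither counted as different. Stc1, which encodes an inhibitor of Pappa, was lower in BLM, with 50 against 233 reads in unsorted cells, a ratio of -1.91 (-2.39 to -1.47). Its ratio was -0.89 (-1.17 to -0.63) in enriched cells, not counted as different, and -3.29 in depleted cells, on 2 against 47 reads.

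Of 8 genes encoding other proteins with an IGFBP domain, 8 in sham and 7 in BLM were higher in enriched cells, against 27.5% and 34.4% of all genes, with medians of 2.87 and 2.35. By the edgeR quasi-likelihood test 7 of 8 were higher, against 21.5%. The matricellular genes Cyr61 and Ctgf had log2 ratios of 2.99 (2.85 to 3.15) and 3.02 (2.79 to 3.27) in sham and of 3.01 (2.81 to 3.23) and 2.83 (2.47 to 3.22) in BLM. Wisp1, of the same family, was also higher in BLM than in sham, by 1.07 (0.84 to 1.31) in enriched cells and 1.69 (0.98 to 2.47) in depleted cells. In unsorted cells its ratio was 0.58 (0.32 to 0.85), not counted as different. BLM over sham, 1 of the 8 genes was higher and 1 lower in unsorted cells, against 13.9% and 16.0% of all genes. In enriched cells 1 was higher and 1 lower, against 10.2% and 7.81%, and in depleted cells 3 and 0, against 13.7% and 22.3%.

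Irs1 and Irs2, adaptors downstream of the receptors, went in opposite directions between the fractions. Of 9 genes listed as growth hormone receptor and adaptors, 5 were higher and 1 lower in enriched than in depleted cells in both treatments. The shares of all genes were 27.5% and 25.2% in sham and 34.4% and 22.6% in BLM. Irs1, a main substrate of Igf1r and the insulin receptor, had 2020, 332 and 1987 reads in sham unsorted, depleted and enriched cells and 467, 45 and 869 in BLM. Its BLM over sham log2 ratio was -1.81 (-1.96 to -1.67), -1.77 (-2.26 to -1.32) and -1.44 (-1.55 to -1.32) in these preparations. Irs2, the related substrate, had 2593, 15291 and 1203 reads in sham and 5463, 4843 and 1246 in BLM, and was lower in enriched than in depleted cells by a log2 ratio of -3.68 (-3.77 to -3.60) in sham and -3.33 (-3.42 to -3.24) in BLM. Irs1 was thus high in enriched and Irs2 high in depleted cells. The growth hormone receptor gene Ghr was lower in BLM, with 2781 against 9504 reads in unsorted cells, a ratio of -1.47 (-1.53 to -1.41). Its ratio was -1.37 (-1.55 to -1.19) in depleted cells and -0.85 (-0.89 to -0.81) in enriched cells, the last not counted as different. Grb14, which encodes an inhibitory adaptor, was lower in all 3 preparations. Of 18 PI3K, AKT and mTOR genes, 0 were counted as different between BLM and sham in unsorted cells, where 13.9% of all genes were higher and 16.0% lower, or in enriched cells, where these shares were 10.2% and 7.81%, and 1 was lower in depleted cells, against 22.3%.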

How the data were processed

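The authors deposited 1 table of raw counts of reads per gene for the 6 libraries, without normalization. The submitters' processing notes name Trimmomatic 0.36, STAR 2.5.2b, featureCounts of Subread 1.5.2, DESeq2 and GRCm38. The annotation release and the strand setting are not given in the sources used here. Of 49315 identifiers, 49056 were found in GENCODE M21, which gave positions, exon lengths and biotypes.

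Libraries were grouped by their labels, which give 1 per condition; the 21 days come from the study's text. Counts were scaled with TMM factors in edgeR 4.0.16 under R 4.3.3. Log2 ratios used a prior count of 0.5 reads and needed 10 or more reads in the larger of the compared libraries. They were computed with scipy 1.17.1, pandas 2.3.3 and numpy 2.4.6 (Python 3.11.15), and figures were drawn with matplotlib 3.10.9. Intervals are exact at 95% and, as reads without molecular identifiers are not independent molecules, cover counting error only. edgeR's quasi-likelihood test (filterByExpr, 4 sorted libraries, treatment block, threshold 0.05 on Benjamini-Hochberg adjusted p) had 1 residual degree of freedom and a biological coefficient of variation of 0.316. A test of the treatment effect on all 6 libraries with a preparation block (2 residual degrees of freedom) was added after seeing the data. Both programs were tested on simulated data. DESeq2 1.42.0 served as an alternative.

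The members, the pathway and marker lists and the tests were chosen with earlier results of these data known. All members are named. Other pathway genes could be named if at least 2-fold different in the same direction in both treatments or in at least 2 of 3 preparations, and the text names a part of them, chosen after their values were seen, as were Igf2r and Stc2 and the marker genes given with values. Genes alike in profile were the 3 nearest with at least 200 reads in 1 library. Alternatives were other scalings, prior counts, read minimums, thresholds, thinned counts, all genes or all 6 libraries in the test, and the DESeq2 Wald test. Promoter sequences are from RefSeq. Protein sequences were not used here.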

Additional observations from a re-analysis of the deposited data

Results flagged for a closer look

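For 3 binding proteins the ratio of BLM over sham went in opposite directions between preparations. Igfbp2 was lower in BLM unsorted cells (log2 ratio -0.74) and higher in Lamp1-depleted cells (2.49), on 22 against 8 reads in the depleted libraries, with 0.16 in Lamp1-enriched cells. Igfbp4 was lower in unsorted (-0.63) and Lamp1-enriched cells (-0.58) and higher in Lamp1-depleted cells (0.77). Igfbp7 was lower in unsorted cells (-0.20) and higher in Lamp1-enriched (0.44) and Lamp1-depleted cells (0.15). These differences were not tested, since each value compares 1 library with 1 library. The depleted values of Igfbp4 and Igfbp7 were 0.05 and -0.57 with total counts only, while the opposite directions of Igfbp7 in unsorted and enriched cells held under every scaling tried.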

How the results depend on the processing

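No member's counted difference turned its direction under any alternative. Counts of members under an alternative are given without the share of all genes under it, and describe these 9 genes only. With total counts only, the number of members lower in BLM unsorted cells was 5 instead of 3, and the sorting effect passed the quasi-likelihood test in 5 instead of 9 genes, with adjusted p of 0.124 for Igf1, 0.0777 for Igf1r, 0.150 for Igfbp4 and 0.0851 for Igfbp6. All other alternatives of that test, the DESeq2 Wald test among them, left 9 of 9 past the threshold. With at least 50 reads, 1 instead of 2 members was higher in BLM Lamp1-depleted cells, since Igfbp2 had fewer reads. With a log2 ratio of at least 2, BLM over sham gave 1 lower member in unsorted cells, 1 higher and 0 lower in Lamp1-enriched and 1 lower in Lamp1-depleted cells. Igf1 (3.88) was still counted as higher in unsorted cells, and Igf1 (2.06) and Igfbp2 (2.49) in Lamp1-depleted cells. At that threshold the fractions differed for 4 members in sham and 4 in BLM, and 0 members in sham and 0 in BLM were above both fractions in unsorted cells. The shares of all genes at that threshold are not given here, so these counts cannot be read as a result about the group. Relative to TMM, total counts only moved all BLM over sham ratios by -0.26 in unsorted and -0.72 in Lamp1-depleted cells, and the ratios between fractions by -0.17 in sham and 0.56 in BLM, and DESeq2 size factors moved the ratios that use BLM Lamp1-depleted cells by 0.15 or -0.15. The scaling of that library, with 38.4% of its reads on Gm26917, thus set the sign of small ratios, of BLM over sham for Igf1r, Igfbp5 and Igfbp7 and of depleted over unsorted BLM cells for Igfbp4 (0.19, and -0.31 with total counts only). The test of the treatment effect, chosen after seeing the data, called 2 instead of 1 members lower with total counts only, with all genes that had at least 1 read and by the DESeq2 Wald test, Igf2 being the added gene. Uncalled values of that test turned for Igfbp7, from 0.18 to -0.20 with total counts only, and for Igfbp4, from -0.11 to 0.17 in the 4 sorted libraries alone. No paired analysis was possible because the labels carry no replicate numbers, so that no replicate block could be fitted, while the tests were blocked by treatment or by preparation. With 1 library per condition, no replicate could be left out. Depth limits Igfbp2 and Igfbp6 most, with 8 and 18 reads in their lowest libraries.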
